A study of Mus musculus with 8 samples.

Results

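Genes known for their high expression or role in white adipocytes were followed in RNA-Seq libraries of macrophages sorted from epididymal white adipose tissue (eWAT). They were 10 genes, chosen by name from the 54146 genes of the count table: the adipokine genes *Adipoq*, *Lep*, *Cfd*, and *Retn*, the lipid droplet coat genes *Plin1*, *Plin4*, and *Cidec*, the lipase genes *Lipe* and *Pnpla2*, and the carbonic anhydrase gene *Car3*. All 10 had a row in the table, and all 10 passed the filter on low counts. The 8 libraries came from 4 C57Bl6 mice, each giving 1 FCGR4+ and 1 FCGR4- library. Every mouse had eaten a high fat diet ad libitum for 24 weeks and had then received 30% less food (stCR, a short caloric restriction) for 2 weeks, so neither population has an unrestricted control. The labels give no age. The sorted cells were CD45+ and CD11b+, and were negative for CD3, B220, Ly6G, and SiglecF, before the split on FCGR4, an Fcγ receptor. This gate holds no marker that only macrophages carry.

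Adipocytes store triglyceride in a single large lipid droplet and release hormones. Perilipin 1 coats that droplet and guards it from lipases, and Cidec helps droplets fuse. On fasting, ATGL (the product of *Pnpla2*) removes the first fatty acid from triglyceride and hormone-sensitive lipase (*Lipe*) removes the next. Adiponectin (*Adipoq*), leptin (*Lep*), adipsin (*Cfd*), and resistin (*Retn*) are secreted, leptin in proportion to fat mass. Macrophages of obese fat take up lipid as well, but coat their droplets mainly with perilipin 2, and they use ATGL in their own lipolysis. In bulk libraries, fewer cells of a type and less RNA per cell cannot be told apart.

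Libraries held 35992794 to 66856746 counts on genes. A gene at or below 3 counts was read as not detected. This limit equals 0.0439 to 0.0882 normalized CPM (counts scaled to library size with TMM factors) and covers counting error only. *Fcgr4* itself, the gene of the sort, lay between 138 and 236 CPM in FCGR4+ and between 48.4 and 82.7 CPM in FCGR4- libraries. The summed level of 11 macrophage markers was 24054 to 48215 CPM in FCGR4+ and 21395 to 45243 CPM in FCGR4- libraries, higher in FCGR4+ in 4 of 4 mice (log2 ratio 0.06 to 0.17). edgeR called 0 of the 11 (1.27% of all genes tested), with 5 at an unadjusted P value under 0.05 (9.77%). DESeq2 called 5 higher (5.99% of all genes tested were called, in either direction). The animals differed in the summed level of 6 erythroid genes, at 2461 and 1958 CPM in FCGR4+ and FCGR4- of mouse 3 and at 790.2 and 578 CPM in those of mouse 4, where mice 1 and 2 lay between 19.0 and 102.0 CPM. The FCGR4- library of mouse 3 also had the highest neutrophil gene sum, at 2270 CPM.

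None of the 10 adipocyte genes differed between FCGR4+ and FCGR4- macrophages at an adjusted P value under 0.1 in edgeR's quasi-likelihood test with the mouse as a block, where 1.27% of the 17095 genes tested passed (0.0819% higher and 1.19% lower in FCGR4+). DESeq2 with the same pairing called 0 of the 10 as well, against 5.99% of all genes. At an unadjusted P value under 0.05, 1 of the 10 passed in edgeR (9.77% of all genes) and 1 in DESeq2 (13.4% of all genes), *Car3* in both. The populations overlapped in every one of the 10 genes, while 3.93% of all genes had no overlap. The log2 fold change was below 0 for 9 of the 10, with *Adipoq* the exception, and for 50.3% of all genes tested. Its median over the 10 was -0.37, beside -0.0025 over all genes tested. The 95% interval took in 0 for 9 of the 10, and 4 of the 10 changed sign in at least 1 alternative fit. Within mice 1, 2, 3, and 4, the median log2 ratio over the 10 genes was -0.18, -0.02, -0.37, and -0.42.

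**Figure D1:**
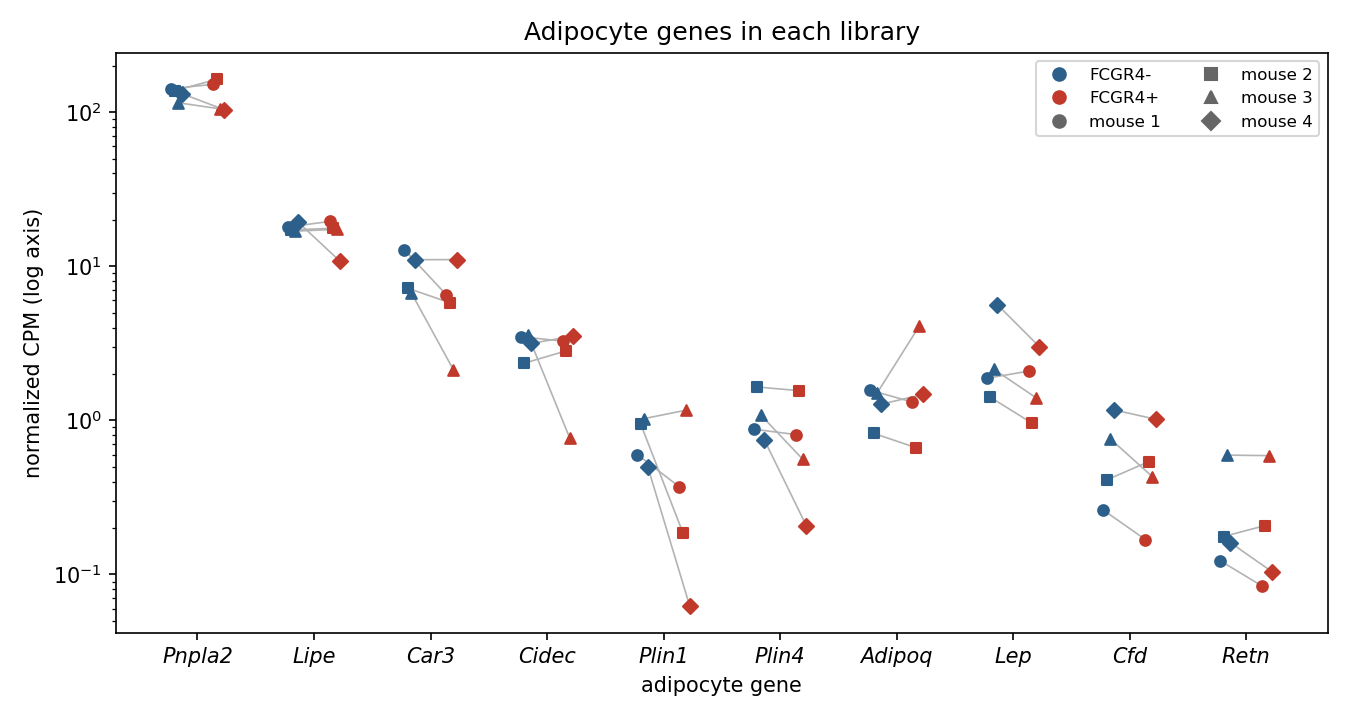
Normalized CPM (log axis) of the 10 adipocyte genes in each library, FCGR4- in blue and FCGR4+ in red, with the symbol showing the mouse and a gray line joining the libraries of 1 mouse. *Pnpla2* lies above 100 CPM in every library, *Plin1* and *Adipoq* reach their highest values in FCGR4+ mouse 3, and the populations overlap for each gene.

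By length the genes fell into a wide range of levels. Mean RPKM (normalized CPM per kilobase of exon, over all 8 libraries) was 43.5 for *Pnpla2*, 2.90 for *Lipe*, 2.76 for *Car3*, 1.55 for *Cidec*, 1.15 for *Adipoq*, 0.690 for *Lep*, 0.645 for *Cfd*, 0.162 for *Plin4*, 0.162 for *Retn*, and 0.130 for *Plin1*. The median of the tested genes was 2.53 RPKM, and 7 of the 10 had a mean below it. *Pnpla2* was the one far above it, higher than 91.1% of the tested genes. Its ratio to *Lipe*, the next in order, lay between 11.8 and 18.9 over the libraries, so these neighbors did not overlap. Every other pair of neighbors in this order overlapped over the libraries, *Lipe* ranging from 1.83 to 3.32 RPKM and *Car3* from 0.746 to 4.48 RPKM. Between the highest and the lowest library, normalized CPM differed 1.57-fold for *Pnpla2* and 1.82-fold for *Lipe*, but 4.68-fold for *Cidec* and 18.7-fold for *Plin1*. The values for *Cidec* and *Plin1* rest on 1 low library each. For *Cidec* it was FCGR4+ mouse 3, and the others lay between 2.35 and 3.59 CPM. For *Plin1* it was FCGR4+ mouse 4, at the limit of 3 counts, and the others lay between 0.187 and 1.16 CPM.

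The lipase genes had the highest mean levels per length, *Lipe* by little and with overlap over *Car3*. *Pnpla2* (chromosome 7, 141455198 to 141460743, plus strand, mm10) was measured at 152, 163, 105, and 104 CPM in FCGR4+ libraries of mice 1 to 4 and at 142, 138, 115, and 132 CPM in FCGR4- libraries. FCGR4+ was the higher population in mice 1 and 2 and the lower in mice 3 and 4. The log2 fold change was -0.03 (SE 0.146, edgeR adjusted P = 0.944), with a 95% interval from 0.769-fold to 1.24-fold. *Lipe* (chromosome 7, 25379527 to 25398710, minus strand) stood at 19.5, 17.6, 17.4, and 10.7 CPM in FCGR4+ and at 17.97, 17.2, 16.9, and 19.3 CPM in FCGR4- libraries. The FCGR4+ library of mouse 4 was alone in being low. The fit gave -0.16 (SE 0.206, edgeR adjusted P = 0.798), and an interval from 0.640-fold to 1.25-fold. Of the exon bases of *Lipe*, 15.6% overlap a gene on the other strand (4732471J01Rik), and pairs there were left uncounted because strand was not used.

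The genes of the droplet coat were low, and their fitted values lay below 0. *Plin1* (chromosome 7, 79720218 to 79732903, minus strand) was measured at 0.371, 0.187, 1.16, and 0.0622 CPM in FCGR4+ and at 0.5996, 0.941, 1.03, and 0.497 CPM in FCGR4- libraries. These values rest on 3 to 73 counts per library, the 3 counts being those of FCGR4+ mouse 4, which is thus at the limit of detection. Mouse 3 had the highest *Plin1* in both populations, and FCGR4+ was the lower population in the other mice. The log2 fold change was -1.36 (SE 0.719, edgeR adjusted P = 0.576), its interval running from 0.121-fold to 1.26-fold. It was -0.77 without the mouse as a block and -0.79 with the other quasi-likelihood method of edgeR. Without mouse 4 it was -0.89, and without mouse 3 it was -1.93. *Plin4* (chromosome 17, 56100591 to 56109803, minus strand) stood at 0.809, 1.56, 0.559, and 0.207 CPM in FCGR4+ and at 0.876, 1.65, 1.08, and 0.746 CPM in FCGR4- libraries. FCGR4+ was the lower population in 4 of 4 mice, by little in mice 1 and 2, and the fit gave -0.72 (SE 0.503, edgeR adjusted P = 0.649). That value was -0.38 without mouse 4, -0.097 in mice 1 and 2 alone, and -1.41 in mice 3 and 4 alone. *Cidec* (chromosome 6, 113424634 to 113435760, minus strand) was measured at 3.27, 2.83, 0.766, and 3.53 CPM in FCGR4+ and at 3.49, 2.35, 3.59, and 3.16 CPM in FCGR4- libraries. Apart from FCGR4+ mouse 3, the libraries lay close together. The log2 fold change of -0.42 (SE 0.470, edgeR adjusted P = 0.759) became 0.09 without mouse 3.

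All 4 adipokine genes had more than 3 counts in each library. *Adipoq* (chromosome 16, 23146536 to 23158028, plus strand) was measured at 1.31, 0.665, 4.10, and 1.47 CPM in FCGR4+ and at 1.57, 0.823, 1.51, and 1.27 CPM in FCGR4- libraries, from 28 to 257 counts. The FCGR4+ library of mouse 3 held the most, and the rest stayed at or below 1.57 CPM. The log2 fold change was 0.27 (SE 0.435, edgeR adjusted P = 0.836), with an interval from 0.595-fold to 2.46-fold, and it was -0.13 without mouse 3. *Lep* (chromosome 6, 29060220 to 29073877, plus strand) stood at 2.09, 0.956, 1.40, and 3.01 CPM in FCGR4+ and at 1.88, 1.41, 2.15, and 5.63 CPM in FCGR4- libraries. Mouse 4 had the highest *Lep* in both populations, and FCGR4+ was lower in 3 of 4 mice. The fit gave -0.48 (SE 0.320, edgeR adjusted P = 0.636).

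*Cfd*, the gene of a complement protease, and *Retn* were measured at low counts. *Cfd* (chromosome 10, 79890853 to 79892655, plus strand) was measured at 0.169, 0.540, 0.431, and 1.02 CPM in FCGR4+ and at 0.261, 0.412, 0.757, and 1.17 CPM in FCGR4- libraries, with a log2 fold change of -0.31 (SE 0.525, edgeR adjusted P = 0.843). The animals ranked alike in both populations at the ends, mouse 1 lowest and mouse 4 highest. *Retn* (chromosome 8, 3655770 to 3660110, plus strand) stood at 0.0843, 0.208, 0.590, and 0.104 CPM in FCGR4+ and at 0.123, 0.176, 0.595, and 0.161 CPM in FCGR4- libraries, from 5 to 37 counts. Mouse 3 was the high animal in both. The fold change of *Retn* was -0.22 on the log2 scale (SE 0.599, edgeR adjusted P = 0.910).

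*Car3*, a cytosolic carbonic anhydrase abundant in fat and muscle, had the smallest P value of the 10. *Car3* (chromosome 3, 14863512 to 14872523, plus strand) was measured at 6.54, 5.80, 2.14, and 11.1 CPM in FCGR4+ and at 12.8, 7.20, 6.73, and 11.03 CPM in FCGR4- libraries. FCGR4+ was lower in mice 1, 2, and 3 and level with FCGR4- in mouse 4. The log2 fold change was -0.72 (SE 0.298), the only one of the 10 whose 95% interval left out 0 (0.372-fold to 0.983-fold). Its unadjusted P value of 0.0444 became 0.494 after adjustment over all genes in edgeR, and the adjusted P value in DESeq2 was 0.260. Without mouse 3, the log2 fold change was -0.44.

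**Figure D2:**
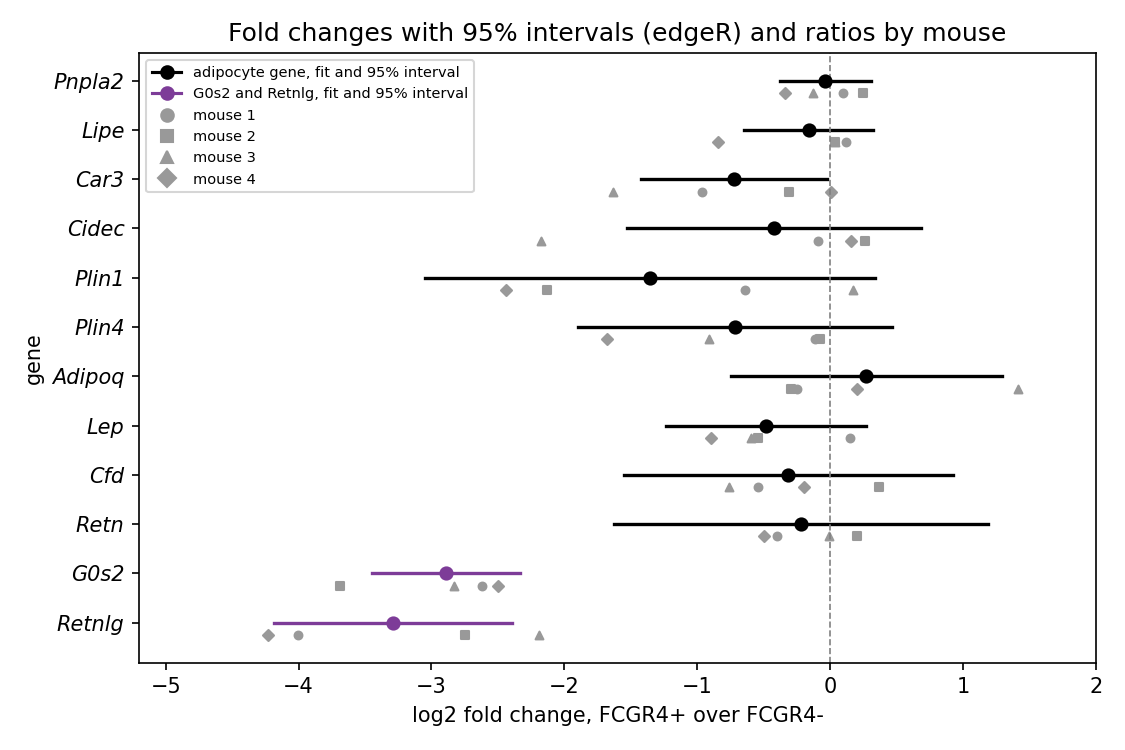
Log2 fold change, FCGR4+ over FCGR4-, of the 10 adipocyte genes (black) and of *G0s2* and *Retnlg* (purple), with the 95% interval of the edgeR fit as a line and the ratio in each mouse as gray symbols below it. The interval of *Pnpla2* is the narrowest and that of *Plin1* the widest of the 10, and *G0s2* and *Retnlg* lie wholly below 0.

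Genes at low levels had wider intervals over the whole table. The SE of the log2 fold change had a median of 0.561 over the tested genes under 5 CPM and of 0.183 over those at 5 CPM or more, and 7 of the 10 adipocyte genes had a mean under 5 CPM. Within the 10, the order of the SEs did not keep to the level, *Cidec* (0.470) lying above *Lep* (0.320). The interval of *Retn* ran from 0.323-fold to 2.28-fold and that of *Cfd* from 0.341-fold to 1.89-fold.

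Summed over the 10 genes, FCGR4+ libraries held 162.1 ± 32.1 CPM and FCGR4- libraries 169.0 ± 13.9 CPM (SD, n = 4 mice), and FCGR4+ was higher in 2 of 4 mice. *Pnpla2* made up most of that sum. Without it, the sums were 34.2, 30.4, 28.5, and 31.2 CPM in FCGR4+ and 39.6, 32.2, 34.3, and 43.0 CPM in FCGR4- libraries of mice 1 to 4. FCGR4+ was then the lower population in 4 of 4 mice, with a mean log2 ratio of -0.26 ± 0.158. Leaving out *Lipe* too, which was decided on with the values in view, the sums were 14.7 ± 4.06 and 19.4 ± 3.94 CPM. They were lower in FCGR4+ in 4 of 4 mice with a mean log2 ratio of -0.41 ± 0.223. *Car3* had the highest mean of these 8 genes, 7.91 CPM over all libraries. *Plin1*, *Plin4*, *Cfd*, and *Retn* had means of 0.255 to 0.936 CPM and weigh little in the sums. The mean log2 ratio of the full sum was -0.08 ± 0.242, and none of these sums carries a test.

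The proportions of the 10 genes varied, in part through the high *Adipoq* of FCGR4+ mouse 3, which lowers every ratio to it there. Relative to *Adipoq* in the same library (ratio of RPKM), *Cidec* had a median ratio of 1.81 and lay between 1.66 and 3.16 in 7 libraries, but at 0.139 in FCGR4+ mouse 3. *Car3* was at 0.251 there, against 2.14 to 4.22 in the others, and *Lep* at 0.141, against a highest ratio of 1.82 in FCGR4- mouse 4. *Pnpla2* ran from 11.7 to 112 times *Adipoq*. *Cidec* and *Car3* were also lowest in that library in CPM, while *Lep*, *Lipe*, and *Pnpla2* were not. The SD of the log2 ratio to *Adipoq* over the 8 libraries was 0.822 to 1.44 for the other members. Over 10012 genes with a mean of at least 5 CPM its median was 0.855. Of the 10 members, 7 had a mean under 5 CPM, where counting error weighs more, so these values are not like for like. The median was not computed again without FCGR4+ mouse 3. For some members the SD rests on that library. With no prior count, and leaving out that library with its values in view, it went from 1.39 to 0.317 for *Cidec*, from 1.39 to 0.415 for *Car3*, and from 1.02 to 0.623 for *Lep*, and it went from 1.38 to 1.49 for *Plin1* and from 1.51 to 1.35 for *Plin4*.

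**Figure D3:**
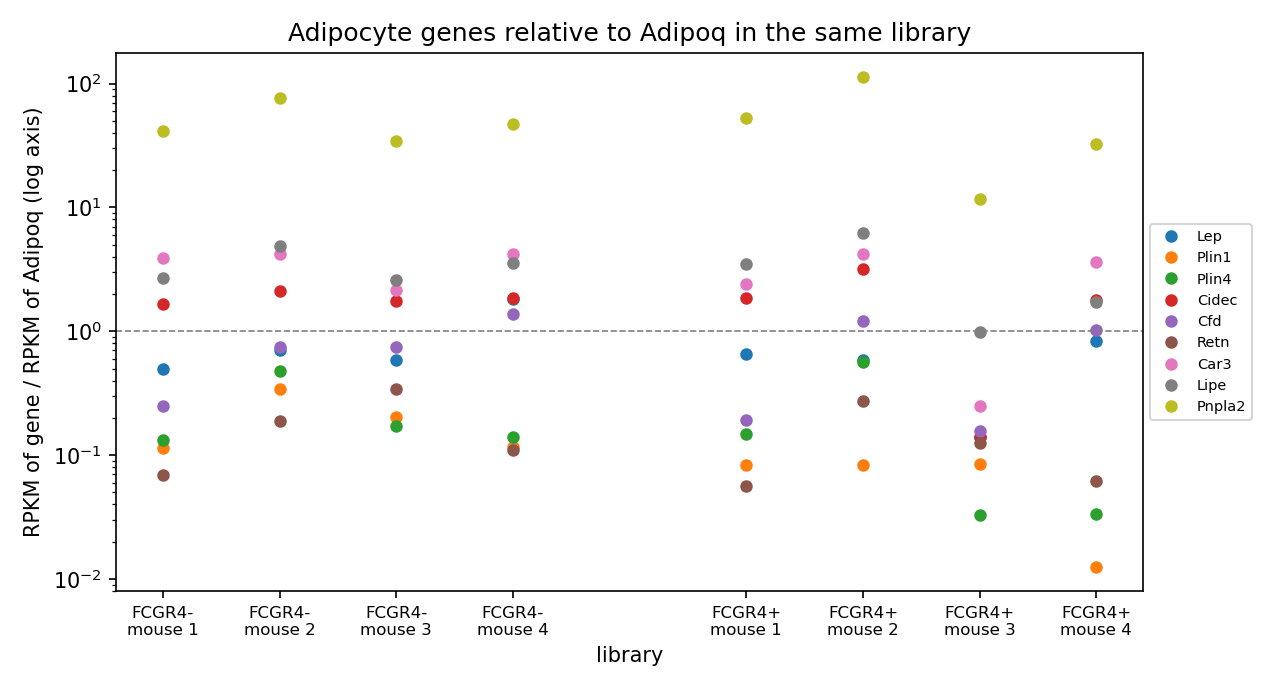
RPKM of each adipocyte gene divided by the RPKM of *Adipoq* in the same library (log axis, dashed line at a ratio of 1), FCGR4- libraries at left and FCGR4+ libraries at right. In FCGR4+ mouse 3, *Cidec*, *Car3*, *Lep*, and *Pnpla2* are all low against *Adipoq* (0.139, 0.251, 0.141, and 11.7).

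Genes that are no members were searched for levels that rise and fall over the libraries as those of *Adipoq* do. The search took in the 10012 with a mean of at least 5 CPM, which leaves out genes as low as *Adipoq* itself. By the smallest SD of the log2 ratio over the 8 libraries, the closest were *Gm8865*, *Gm11575*, *Klf4*, *Mapk8*, *Mt2*, and *Trim33*, with SDs of 0.301 to 0.335. As the choice of these genes by *Adipoq* favors, they were highest in FCGR4+ mouse 3, with *Klf4*, a transcription factor gene, at 89.7 CPM there and at 25.7 to 46.3 CPM elsewhere. *Mt2*, a metallothionein gene, reached 76.1 CPM there and lay between 20.3 and 51.2 CPM elsewhere. None of these 6 passed the threshold between the populations (edgeR adjusted P = 0.571 to 0.765, lowest unadjusted P = 0.097). With *Adipoq* at 28 to 257 counts, counting error is part of each of these ratios.

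A further 17 genes of adipocyte identity were read beside the 10. Of these, 12 passed the filter on low counts. The edgeR test called 0 of the 12, with 2 at an unadjusted P value under 0.05 (9.77% of all genes). DESeq2 called 1 lower, *Itih5*, a matrix gene named here after its value was seen, at 2.21, 2.74, 1.40, and 4.06 CPM in FCGR4+ and 14.1, 6.20, 7.05, and 6.24 CPM in FCGR4- libraries (log2 fold change -1.70, edgeR adjusted P = 0.158). Over the 12, the fold changes had a median of -0.43 on the log2 scale. The 5 that did not pass the filter were *Adrb3*, *Acvr1c*, *Lgals12*, *Slc2a4*, and *Cidea*, and of the 17 only *Cidea* was at or under 3 counts in every library. The summed level of the 17 genes was 39.2 to 61.7 CPM in FCGR4+ and 36.9 to 63.6 CPM in FCGR4- libraries. Of 7 brown adipocyte genes, 2 passed the filter and 0 were called in edgeR or DESeq2, with 0 at an unadjusted P value under 0.05 in each.

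Some relatives of the adipocyte genes were at far higher levels, and examples are given. *Plin2*, the perilipin of macrophage droplets, had a mean of 845 RPKM, against 0.130 RPKM for *Plin1*, and the lowest ratio within a library was 2795-fold over *Plin1* and 3467-fold over *Plin4*. It stood at 2637, 3859, 2460.1, and 3196 CPM in FCGR4+ and 2583, 3469.8, 2308, and 3228 CPM in FCGR4- libraries (log2 fold change 0.06, edgeR adjusted P = 0.858). Among the resistin family, *Retnla*, a marker of alternatively activated macrophages named after its value was seen, exceeded *Retn* 798-fold to 5258-fold, at 84.0, 62.9, 711, and 101 CPM in FCGR4+ and 245, 239, 710.0, and 267 CPM in FCGR4- libraries (log2 fold change -1.23, edgeR adjusted P = 0.198, DESeq2 adjusted P = 0.000636). *C1qb*, which encodes a complement subunit with the same C1q domain as adiponectin, had a mean of 3303 RPKM. Among genes of lipolysis outside these families, lysosomal acid lipase (*Lipa*), at 288 RPKM, was 56.1 to 129.9 times as high as *Lipe*.

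**Figure D4:**
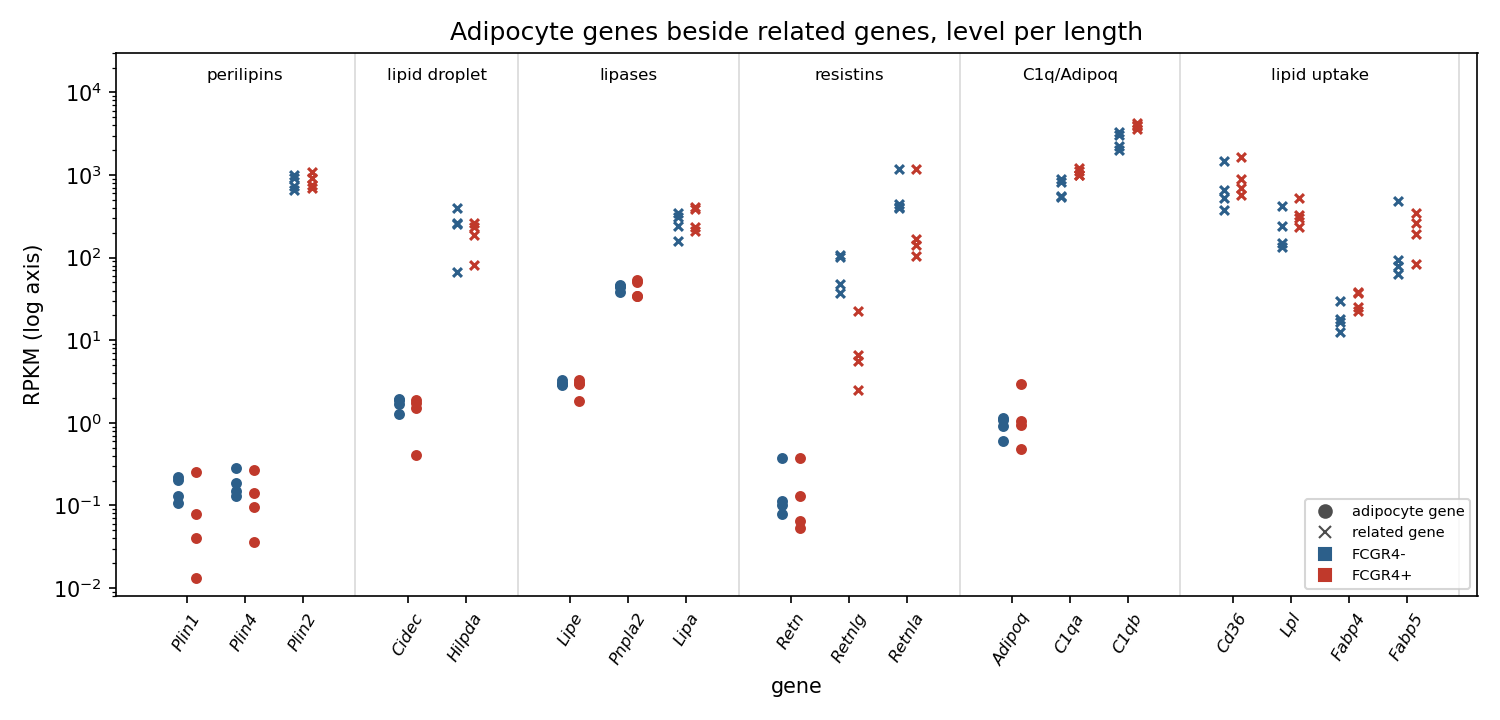
RPKM (log axis) in each library of adipocyte genes (circles) and of related genes (crosses), grouped by family or role, FCGR4- in blue and FCGR4+ in red. *Plin2*, *Retnla*, and *C1qb* lie orders of magnitude above *Plin1*, *Plin4*, *Retn*, and *Adipoq*, while *Retnlg* is the one gene shown whose populations lie apart with the FCGR4- libraries higher.

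Of the 26 family members on the paralog list, 18 passed the filter. In edgeR 1 of these fell in FCGR4+ while 0 rose (1.27% of all genes called), and DESeq2 called 2 lower and 3 higher (5.99%). The edgeR call was *Retnlg*, a resistin-like gene abundant in neutrophils, at 3.96, 3.28, 13.3, and 1.47 CPM in FCGR4+ and 64.2, 22.3, 60.7, and 28.2 CPM in FCGR4- libraries. Each FCGR4- library was above each FCGR4+ library, and the log2 fold change was -3.29 (SE 0.381, edgeR adjusted P = 0.0213), or 0.0550-fold to 0.191-fold. Without the mouse as a block, its log2 fold change was -2.99 and its edgeR adjusted P value 0.164. The complement genes of the list lay higher in FCGR4+ in 4 of 4 mice without passing in edgeR, with log2 fold changes of 0.62 for *C1qb*, 0.62 for *C1qc*, and 0.64 for *C1qa* (edgeR adjusted P = 0.297 to 0.345, DESeq2 adjusted P = 0.0430 to 0.0639).

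Among 15 other genes of lipolysis, 12 were tested, and 1 fell in FCGR4+ while 0 rose, in edgeR (1.27% of all genes called) and in DESeq2 (5.99%). That gene was *G0s2*, whose product binds and inhibits ATGL. It was measured at 2.70, 0.811, 10.8, and 5.10 CPM in FCGR4+ and at 16.8, 10.9, 77.2, and 29.0 CPM in FCGR4- libraries, mouse 3 being the highest in both. FCGR4+ was lower in 4 of 4 mice, by a log2 fold change of -2.89 (SE 0.237, edgeR adjusted P = 0.00731), an interval of 0.0915-fold to 0.198-fold. The call was lost without the mouse as a block (log2 fold change -2.78, edgeR adjusted P = 0.377). *Abhd5*, the coactivator of ATGL and named here after its values were seen, stood at 16.3 to 26.1 CPM in FCGR4+ and 20.2 to 28.1 CPM in FCGR4- libraries (log2 fold change -0.16, edgeR adjusted P = 0.744). *Lipa* (0.23), *Fabp4* (0.70), and *Prkaca* (-0.07), the highest genes of the list by RPKM beside *G0s2*, did not pass (edgeR adjusted P = 0.488 to 0.863).

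Both genes that passed are also made in neutrophils, a cell type that the Ly6G-negative gate should remove. Of 7 tested neutrophil markers, 3 fell in FCGR4+ in edgeR (1.19% of all genes) and 4 in DESeq2. The sum of all 8 listed was 112 to 515 CPM in FCGR4+ and 306 to 2270 CPM in FCGR4- libraries, lower in FCGR4+ in 4 of 4 mice. Their part in the values of *G0s2* and *Retnlg* was not tested.

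The remaining lists of lipid handling held no gene past the threshold in edgeR. Of the lipid droplet list, 8 genes were tested, 0 at an unadjusted P value under 0.05 in edgeR and 0 in DESeq2, with *Hilpda* (-0.22), *Rab7* (-0.11), and *Rab18* (0.22) its highest by RPKM after *Plin2*. Of 14 lipogenic genes, 1 had an unadjusted P value under 0.05 in edgeR and 3 in DESeq2, which called 0. The 4 highest of them by RPKM were *Acly* (-0.28), *Agpat2* (-0.10), *Dgat1* (-0.33), and *Dgat2* (-0.77 on the log2 scale, edgeR adjusted P = 0.527). Of 8 genes of fatty acid uptake, 6 had an unadjusted P value under 0.05 in edgeR (9.77% of all genes). DESeq2 called 2 of them (5.99% of all genes). These were *Lpl* and, with a log2 fold change of -1.88, *Vldlr*, named after its value was seen. Lipoprotein lipase (*Lpl*) stood at 5459, 2445, 3167, and 3433 CPM in FCGR4+ and at 4438, 1595, 1425, and 2532 CPM in FCGR4- libraries, higher in 4 of 4 mice (log2 fold change 0.62, edgeR adjusted P = 0.233, DESeq2 adjusted P = 0.0172). The scavenger receptor gene *Cd36* was higher in 4 of 4 mice with a log2 fold change of 0.40 (edgeR adjusted P = 0.488), and *Fabp5* (0.67) and *Slc27a1* (0.20) did not pass.

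All 12 regulators of adipocyte differentiation on the list were tested, and edgeR called 0. Of the 12, 7 had an unadjusted P value under 0.05 in each of edgeR and DESeq2 (9.77% and 13.4% of all genes). DESeq2 called 5, *Pparg*, *Mlxipl* (log2 fold change 2.31), *Cebpd* (-0.74), *Ebf1* (-2.29), and *Zfp423* (-2.95), of which all but *Pparg* are named after their values were seen. *Pparg*, the nuclear receptor that drives adipogenesis and is also made in macrophages, stood at 58.6, 43.8, 37.1, and 49.96 CPM in FCGR4+ and at 43.5, 25.2, 16.9, and 42.9 CPM in FCGR4- libraries. FCGR4+ was higher in 4 of 4 mice, by 0.64 on the log2 scale (edgeR adjusted P = 0.262, DESeq2 adjusted P = 0.0399). *Cebpb* (-0.26), *Nr1h3* (0.32), and *Cebpa* (0.26) were the highest of the list by RPKM beside it. Of the receptors of adipokines, 4 of 5 were tested and 0 were called by either tool, with 0 at an unadjusted P value under 0.05 in edgeR and 1 in DESeq2. *Adipor1* (48.4 RPKM) was the higher of the adiponectin receptor genes and *Adipor2* (2.58 RPKM) the lower, *Cap1*, whose product binds resistin, was at 30.1 RPKM, and *Cdh13* was at 0.0802 RPKM.

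Markers of other cells of fat differed in how many fell in FCGR4+. Over all genes tested, edgeR called 1.19% lower and DESeq2 called 5.99% in either direction. Of 10 fibroblast and preadipocyte markers, 7 fell in FCGR4+ in edgeR and 10 in DESeq2, and their median log2 fold change was -2.10. Their sum was 148 to 281 CPM in FCGR4+ and 369 to 1467 CPM in FCGR4- libraries, and none of the 10 was at 0. Of 8 mast cell and basophil markers, 8 fell in both tools, with sums of 14.5 to 30.4 and 389 to 2133 CPM. Among T and NK cell markers 6 of 8 fell, but their sums of 71.6 to 171 CPM in FCGR4+ and 62.2 to 211 CPM in FCGR4- overlapped and were higher in FCGR4+ in 2 of 4 mice. Among B and plasma cell markers 2 of 5 fell, among mesothelial markers 1 of 8, and among endothelial (8) and erythroid (5) markers 0 in edgeR, with 3 endothelial and 0 erythroid at an unadjusted P value under 0.05. In DESeq2 the numbers were 7 of 8 T and NK cell, 4 of 5 B and plasma cell, 1 of 8 mesothelial, 2 of 8 endothelial, and 0 of 5 erythroid markers. The part of any of these cell types in the adipocyte gene values was not tested, nor was the difference between the lists.

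**Figure D5:**
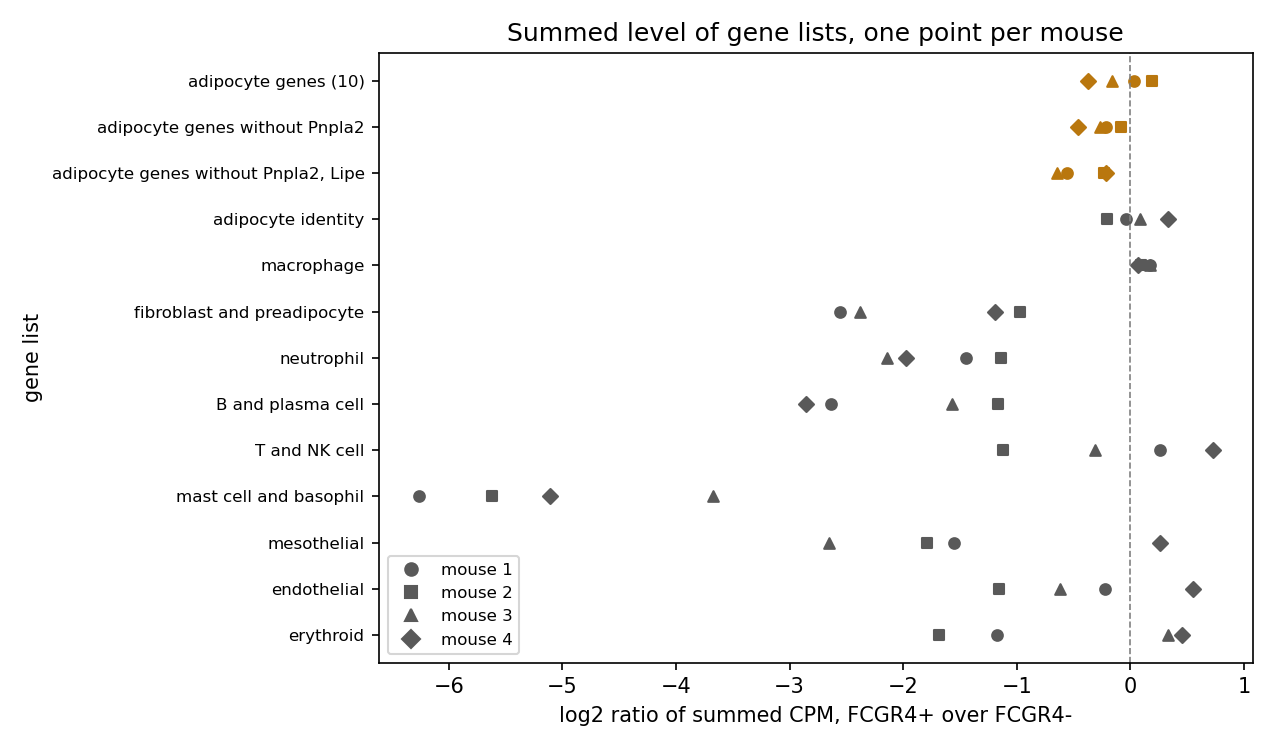
Log2 ratio, FCGR4+ over FCGR4-, of the summed CPM of gene lists, 1 symbol per mouse, with sets of the adipocyte genes in brown and other lists in gray. The 10 adipocyte genes lie on both sides of 0 and lie below 0 in 4 of 4 mice without *Pnpla2*, while the mast cell and basophil sums lie far below 0.

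Promoters of 3 of the genes are shown, *Pnpla2* as the highest gene per length and *Adipoq* and *Lep* as adipokine genes below the median level that differ in CG number. Sequences are from RefSeq on GRCm38.p6, the 250 bases before the start site, with CG dinucleotides in capitals, and 9 of the 10 genes matched (11 promoters). *Pnpla2*, the highest gene per length, has 12 CG in this window, *Adipoq* has 0, and *Lep*, which is low, has 16. The median over 32851 promoters was 6, and 7.87% had none.
Adipoq, chr16:23146286-23146535, plus strand: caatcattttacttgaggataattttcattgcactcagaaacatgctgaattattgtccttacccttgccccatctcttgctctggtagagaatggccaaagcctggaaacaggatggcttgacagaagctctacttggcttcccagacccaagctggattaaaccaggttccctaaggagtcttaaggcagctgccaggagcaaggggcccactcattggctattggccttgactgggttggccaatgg
Pnpla2, chr7:141454938-141455187, plus strand: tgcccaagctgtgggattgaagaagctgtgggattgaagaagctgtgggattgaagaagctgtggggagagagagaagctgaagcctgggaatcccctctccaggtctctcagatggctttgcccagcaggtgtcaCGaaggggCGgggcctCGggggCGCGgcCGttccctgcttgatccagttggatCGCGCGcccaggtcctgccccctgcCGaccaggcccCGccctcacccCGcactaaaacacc
Lep, chr6:29059971-29060220, plus strand: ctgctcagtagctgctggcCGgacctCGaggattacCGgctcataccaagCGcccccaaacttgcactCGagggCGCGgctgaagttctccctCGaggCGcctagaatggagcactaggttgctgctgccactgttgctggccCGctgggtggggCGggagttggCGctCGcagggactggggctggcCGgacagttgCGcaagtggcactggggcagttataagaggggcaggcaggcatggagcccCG
The other matched promoters had 1 CG (*Plin1*), 6 (*Plin4*), 6 and 4 (*Cidec*), 2 (*Cfd*), 2 (*Retn*), and 1 and 18 (*Lipe*, with 2 start sites). The GC box GGGCGG, sought on both strands, was found in *Pnpla2*, *Lep*, and 1 *Lipe* promoter, and in 32.7% of all promoters. CCAAT on either strand was found in *Adipoq* and *Plin4* and in 33.8% of all promoters. TATAAA (12.4% of all) and AGGTCA, the half-site that PPARγ binds (14.02% of all), were not found in the 11 windows of the 9 matched genes. These are matches of letters only, and CG number did not order the genes by level, since *Lep* with 16 CG was at 0.690 RPKM and *Pnpla2* with 12 at 43.5 RPKM.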

How the data were processed

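Counts of 8 bulk RNA-Seq libraries (FCGR4+ and FCGR4- macrophages of 4 mice) were used. The authors aligned read pairs to mm10 using STAR and made gene counts in featureCounts 1.6.3. Deposited counts are raw. Per the file headers, multimapping pairs were counted at each place, strand was not used, and pairs on overlapping genes were left out. Population and mouse were taken from the labels.

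A gene was tested when 4 or more of the 8 libraries had 10 or more counts (17095 genes). edgeR 4.0.16 (R 4.3.3) was run with TMM, its quasi-likelihood test, mouse as a block, and Benjamini-Hochberg adjustment over these genes (threshold 0.1). The SE was the log2 fold change over the root of F. RPKM used the deposited gene length, and ratios by mouse a prior count of 2. DESeq2 1.42.0, no block, other normalizations, filters and thresholds, and subsets of mice were alternatives. Pairing is by the labels' mouse number, and libraries of 1 mouse deviated together (correlation 0.291 or more).

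The 10 genes, the other lists and the tests were chosen with earlier results of these data known. Named genes were the 10, list members past the threshold, the 4 highest by RPKM of 7 related lists, and the 6 non-members with the smallest SD of the ratio to *Adipoq*. A few other genes were named after their values were seen. Marker lists of other cells are, in departure from that rule, given as counts. Scripts were tested on simulated data.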

Additional observations from a re-analysis of the deposited data

Results flagged for a closer look

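For the 10 adipocyte genes, the values of the 4 mice were searched for a single library far from the other 3 (a gap to its neighbor, as a share of the range, above Dixon's 95% critical value), in each population and in the log2 ratios, 30 groups in all. Chance passes about 1 in 20 groups, or 1.5 of 30, and 3 passed. The log2 ratio of *Cidec* in mouse 3 was -2.18, the others lying between -0.09 and 0.26. The log2 ratio of *Lipe* in mouse 4 was -0.84, the others lying between 0.04 and 0.12. *Retn* in the FCGR4- library of mouse 3 was at 0.595 CPM, the others lying between 0.123 and 0.176 CPM.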

How the results depend on the processing

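Under each of the 12 alternative fits and at a threshold of 0.05, 0 of the 10 adipocyte genes passed. The number of all genes past the threshold was 217 (14 higher, 203 lower in FCGR4+), 48 with no replicate block (1 higher, 47 lower), 1024 with DESeq2 (192 and 832), 629 with the other quasi-likelihood method of edgeR (57 and 572), 1054 with no filter on low counts (159 and 895), 113 in mice 1 and 2 alone and 113 in mice 3 and 4 alone (pairs with different animal ID prefixes), 76 at 0.05, and 84 to 163 with 1 mouse left out. The cause of these differences was not tested. The median log2 fold change of the 10 genes was -0.37, moved to -0.12 in mice 1 and 2 and to -0.66 in mice 3 and 4, and lay between -0.51 and -0.28 with 1 mouse left out and at -0.28 with no replicate block. The log2 ratio of the summed level was -0.08, and moved to -0.41 without *Pnpla2* and *Lipe* (added after seeing the data). It lay between -0.17 and 0.02 with 1 mouse left out. Of the 10, 4 changed sign at least once, none past the threshold. With mice 1 and 2 alone the log2 fold change was -0.28 for *Adipoq*, 0.081 for *Cidec*, 0.079 for *Lipe*, 0.17 for *Pnpla2*, 0.062 for *Rab7*, 0.023 for *Prkaca*, 0.18 for *Acly*, 0.035 for *Agpat2*, 0.0026 for *Dgat1*, -0.040 for *Fabp5*, 0.18 for *Cebpb*, 0.13 for *Adipor1*, 0.21 for *Cap1*, -0.0040 for *Gm8865*, -0.36 for *Gm11575*, -0.31 for *Mapk8*, -0.071 for *Mt2*. With 1 mouse left out it ran from -0.13 to 0.46 for *Adipoq*, -0.68 to 0.095 for *Cidec*, -0.25 to 0.066 for *Lipe*, -0.13 to 0.069 for *Pnpla2*, -0.55 to 0.019 for *Dgat1*, -0.26 to 0.038 for *Cap1*, -0.0097 to 0.50 for *Gm11575*, -0.025 to 0.46 for *Mapk8*, -0.011 to 0.38 for *Mt2*. The sign changed without mouse 3, or for *Lipe* and *Pnpla2* without mouse 4. With library size alone *Plin2* was -0.025. Without the block, *G0s2* and *Retnlg* no longer passed, and *Retnlg* did not pass in mice 3 and 4. *C1qa*, *C1qb*, *C1qc*, *Lpl*, *Pparg*, *Fabp4*, and *Fabp5* passed under DESeq2 or without the filter. Genes under 5 CPM had a median SE of 0.561, which limits what can be said of small changes in them, and the parts of depth and of spread between mice in it were not tested.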
